A study of Homo sapiens with 32 samples.

Results

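The 6 genes described here are the early growth response transcription factors *EGR1*, *EGR2*, *EGR3*, and *EGR4* and their corepressors *NAB1* and *NAB2*, taken by symbol from a table of 25498 genes measured in LNCaP cells. The genes were selected on their measured differences from untreated cells after EGF and NRG-1, which were already known from these data. Their differences from untreated cells, and their changes from 1 to 4 hours, are therefore given as descriptions without tests. The same holds for differences between ligands of the *EGR* genes at 1 or 4 hours. Their differences from untreated cells with each ligand were known when the genes were chosen. P values of the *NAB* genes between the ligands are given, but are not independent of the choice either. LNCaP is a prostate cancer cell line derived from a lymph node metastasis that depends on androgen for growth. RNA was sequenced from 8 groups of 4 libraries. Cells of the first group stayed in medium with fetal bovine serum (FBS), and the medium of all others held charcoal-stripped serum (CSS) instead, a serum low in steroid hormones. The CSS cells were left without a growth factor or were given 100 ng/mL of epidermal growth factor (EGF), which binds EGFR, or of neuregulin 1 (NRG-1), which binds HER3 and HER4, for 5 minutes, 1 hour, or 4 hours. Ligands were added a day after the change to CSS. Each group held 2 biological replicates in each of 2 batches. The labels give no time point for the FBS and CSS cells, so the cells without a growth factor are a single reference for all times, and all results come from this 1 cell line.

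EGR proteins are zinc-finger transcription factors encoded by immediate early genes, which are transcribed soon after a growth factor binds its receptor and before new proteins are made. ERK signaling phosphorylates the ternary complex factors, which bind CArG boxes in early gene promoters together with serum response factor (SRF). NAB1 and NAB2 bind EGR1, EGR2, and EGR3 and repress their activity, in part through the nucleosome remodeling and deacetylase complex (NuRD), and *NAB2* is itself a known target of EGR factors. *EGR4* encodes a family member that lacks the domain bound by NAB proteins. *EGR1* is often abundant in prostate carcinoma.

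The promoters of 4 of these genes are shown because each window held the letters of a CArG box or an EGR site. The sequences are the 250 bases before the RefSeq start site in build GRCh38.p14, written 5′ to 3′ on the gene's strand, with CArG boxes and EGR sites in capitals. The reads were aligned by the authors to hg19, so these coordinates do not apply to the deposited values. Promoter entries were found for 5 of the 6 genes, all but *EGR3*. The windows lie at chr5:138465229-138465478 (+) for *EGR1*, chr10:62816367-62816616 (-) for *EGR2*, chr2:190648645-190648894 (+) for *NAB1*, and chr12:57088864-57089113 (+) for *NAB2*.
EGR1: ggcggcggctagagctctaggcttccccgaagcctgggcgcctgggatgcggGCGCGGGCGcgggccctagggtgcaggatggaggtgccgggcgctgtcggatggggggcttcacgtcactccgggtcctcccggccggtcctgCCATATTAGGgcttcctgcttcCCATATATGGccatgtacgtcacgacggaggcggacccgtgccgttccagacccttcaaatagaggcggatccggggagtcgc
EGR2: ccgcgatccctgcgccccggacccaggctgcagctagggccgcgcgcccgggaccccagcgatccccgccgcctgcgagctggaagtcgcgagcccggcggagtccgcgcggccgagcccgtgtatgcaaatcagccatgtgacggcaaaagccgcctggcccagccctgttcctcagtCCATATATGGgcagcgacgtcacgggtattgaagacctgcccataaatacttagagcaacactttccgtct
NAB1: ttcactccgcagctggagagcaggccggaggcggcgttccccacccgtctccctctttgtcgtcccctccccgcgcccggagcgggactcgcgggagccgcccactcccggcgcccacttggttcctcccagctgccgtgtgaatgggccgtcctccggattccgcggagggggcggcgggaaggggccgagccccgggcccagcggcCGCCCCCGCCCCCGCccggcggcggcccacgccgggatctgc
NAB2: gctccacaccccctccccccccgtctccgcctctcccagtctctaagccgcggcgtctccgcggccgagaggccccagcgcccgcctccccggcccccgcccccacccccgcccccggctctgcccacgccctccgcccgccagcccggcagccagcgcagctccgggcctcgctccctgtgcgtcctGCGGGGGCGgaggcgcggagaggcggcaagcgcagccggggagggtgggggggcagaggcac

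The *EGR1* window held 2 CArG boxes, at 74 to 83 and 96 to 105 bases before the start, and 1 EGR site (GCGNGGGCG) at 190 to 198 bases. The *EGR2* window held 1 CArG box at 62 to 71 bases. The other *EGR2* windows and the *EGR4* window held none of the 4 motifs searched. The *NAB2* window held 1 EGR site at 54 to 62 bases before the start. The first *NAB1* window held 2 EGR sites that share bases, at 28 to 36 and 34 to 42 bases. Of the other *NAB1* windows, 1 overlaps the first and held 3 EGR sites, and the other held none. Both strands were searched. Over all 35116 windows of this length, 1.16% held a CArG box and 8.41% held an EGR site. The cyclic AMP response element (TGACGTCA, in 1.65% of windows) and the ETS site (CCGGAA, in 14.5%) were found in none of the windows of the 5 genes. These matches describe the letters in the windows and are not evidence of binding.

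The libraries held 63822654 to 92401724 expected counts, with a median of 77866194. Levels are given as CPM, counts scaled to a common library total with trimmed mean of M values (TMM) factors, with means ± SD over n = 4 libraries. Library values are listed as batch 1 replicates 1 and 2, then batch 2 replicates 1 and 2. Luminal prostate markers were present in every library, among them *HOXB13* at 163 to 389 TPM (transcript abundance corrected for length), *FOLH1* at 695 to 1639 TPM, and the androgen-driven *KLK3* at 143 to 2824 TPM. Of the 5 markers of other cells, *KRT5*, *TP63*, *PECAM1*, and *PTPRC* reached at most 0.04 TPM, and *COL1A1* lay between 1.36 and 5.00 TPM. The part of differences in these markers in the results was not tested.

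**Figure D1:**
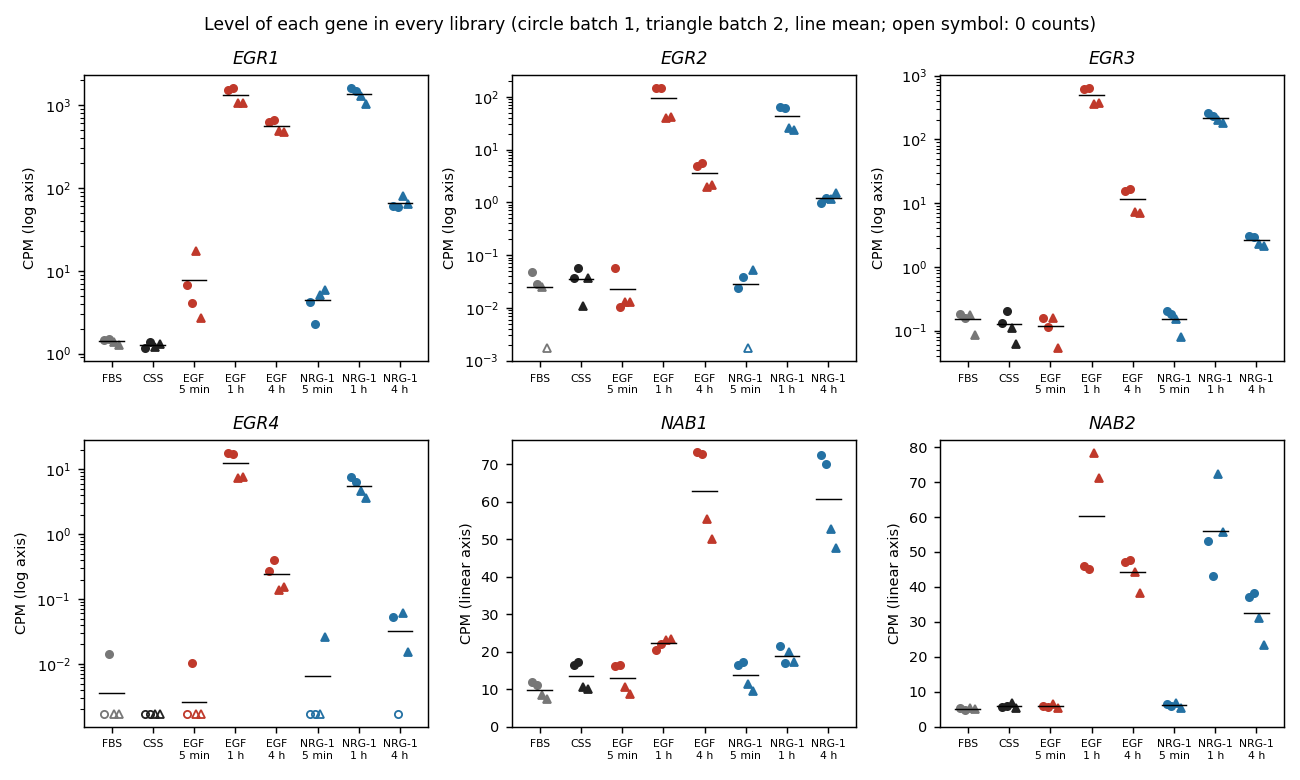
Level of each of the 6 genes in every library, in CPM, by group, with a log axis for the *EGR* genes and a linear axis from 0 for the *NAB* genes. Circles are batch 1, triangles are batch 2, lines are group means, and open symbols are libraries with 0 counts. The *EGR* genes peaked at 1 hour, *NAB2* was high at both 1 and 4 hours, and *NAB1* was highest at 4 hours.

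Without a ligand, the 4 *EGR* genes ranged from low to undetected, whereas both *NAB* genes were present. In CSS, *EGR1* stood at 1.16, 1.38, 1.21, and 1.29 CPM. *EGR3* had 11, 14, 10, and 5 expected counts in CSS, and *EGR2* had 3, 4, 1, and 3. *EGR4*, which is best known from neurons, had 0 counts in all 4 CSS libraries. By TPM, on which genes can be compared, *EGR1* made up 90.3% ± 2.95 of the summed *EGR* level in CSS, and *EGR3* made up 6.99% ± 2.22. *NAB1* and *NAB2* stood at 5.38 ± 1.74 and 3.97 ± 0.587 TPM in CSS, so that *NAB1* contributed 56.6% ± 8.13 of their sum.

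No testable member met the limits set below between the serum types, though intervals were wide for *EGR1* and *EGR3*. This comparison asks whether steroid-containing serum shifts the basal level, and it was not used to choose the genes. Of the 4 genes with more than 4 counts in at least 1 library of each group, 0 were differentially expressed genes (DEGs) between FBS and CSS in edgeR (adjusted P below 0.05 and log2 fold change beyond 1), against 8.71% of all 16995 genes tested, and DESeq2 also called 0. *NAB1* alone of the 4 had an unadjusted P below 0.05, as did 57.6% of all genes. *NAB1* stood at 11.9, 11.0, 8.31, and 7.46 CPM in FBS and at 16.4, 17.1, 10.5, and 10.0 CPM in CSS. Within each batch the FBS values were the lower ones and did not overlap with CSS. The log2 difference was -0.46 (SE 0.14, 95% interval -0.75 to -0.18, adjusted P = 0.00546 in edgeR), below the fold limit for a DEG, and 52.7% of all genes passed the adjusted P limit alone. *NAB2* was at 5.10 ± 0.291 CPM in FBS and 5.89 ± 0.687 CPM in CSS, a log2 difference of -0.20 with an interval of -0.56 to 0.15 (adjusted P = 0.340 in edgeR). *EGR1* was at 1.41 ± 0.109 CPM in FBS and 1.26 ± 0.0942 in CSS, with an interval of -0.74 to 1.09 for the log2 difference of 0.17. *EGR3* differed by 0.28 on the log2 scale, with an interval of -0.48 to 1.05. *EGR2* held 0 to 4 counts and *EGR4* 0 or 1 count in each FBS library, too few for a fold.

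*EGR1*, the most abundant of the *EGR* genes at every time, was the only member above the CSS range in all 8 libraries at 5 minutes. Its levels at 5 minutes were 6.71, 4.14, 17.4, and 2.70 CPM with EGF. With NRG-1 they were 4.24, 2.30, 5.08, and 5.93 CPM. All 8 values lay above those of CSS, and the EGF libraries spread over a wider range than the NRG-1 libraries. Relative to CSS, the fitted log2 difference was 2.62 (SE 0.39) with EGF and 1.80 (SE 0.40) with NRG-1. Without the EGF library at 17.4 CPM, batch 2 replicate 1, the difference with EGF was 1.79. The other members stayed close to their CSS levels at 5 minutes. *EGR3* held 4 to 12 expected counts with EGF and 6 to 17 with NRG-1, and *EGR2* held at most 4 counts in any library of either ligand. *NAB1* and *NAB2* differed from CSS by -0.06 to 0.04 on the log2 scale at 5 minutes.

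At 1 hour, *EGR1* reached 1528, 1605, 1061, and 1070 CPM with EGF. With NRG-1 it reached 1626, 1477, 1272, and 1033 CPM. The ranges of the ligands overlapped, and the means were 1316 ± 291 and 1352 ± 257 CPM, 1047- and 1075-fold above the CSS mean. At 4 hours *EGR1* stood at 632, 656, 490, and 474 CPM with EGF. With NRG-1 it stood at 59.8, 59.3, 79.2, and 64.6 CPM. Every EGF library at 4 hours lay below every EGF library at 1 hour, and every NRG-1 library at 4 hours lay far lower still. The mean at 4 hours was 42.8% of the 1-hour mean with EGF (41.1% in batch 1 and 45.3% in batch 2) and 4.86% with NRG-1 (3.84% and 6.23%). Even so, the level at 4 hours with NRG-1 was 52.2-fold above the CSS mean.

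*EGR3*, which shares target sites with *EGR1*, reached 627, 650, 364, and 369 CPM at 1 hour with EGF. With NRG-1 it reached 257, 233, 198, and 181 CPM, below every EGF library. At 4 hours it had fallen to 15.5, 16.6, 7.20, and 7.04 CPM with EGF and to 3.06, 2.98, 2.26, and 2.13 CPM with NRG-1. From summed counts, the 1-hour level was 4077-fold that of CSS with EGF (95% exact interval 2994 to 5708) and 1751-fold with NRG-1 (1285 to 2451). Such intervals cover counting error only. The 4-hour mean was 2.31% of the 1-hour mean with EGF and 1.20% with NRG-1, so the fall was 43.3-fold and 83.3-fold. *EGR3* at 4 hours was still 96.1-fold (70.4 to 135) above CSS with EGF and 21.4-fold (15.5 to 30.2) with NRG-1.

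*EGR2*, a factor known for its role in myelinating Schwann cells, reached 149, 149, 40.0, and 41.0 CPM at 1 hour with EGF. With NRG-1 it reached 64.0, 60.1, 25.5, and 23.2 CPM. The ligand ranges overlapped over both batches but not within either batch, because both ligands gave higher values in batch 1. At 4 hours *EGR2* stood at 4.94, 5.65, 1.91, and 2.11 CPM with EGF and at 0.988, 1.22, 1.18, and 1.53 CPM with NRG-1. The ratio of summed counts to CSS was 2799 (95% exact interval 1564 to 5607) at 1 hour with EGF and 1238 (692 to 2481) with NRG-1, each against 11 counts in all CSS libraries. At 4 hours it was 111 (61.6 to 222) and 36.1 (19.9 to 73.0). The 4-hour mean was 3.86% of the 1-hour mean with EGF and 2.85% with NRG-1.

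*EGR4* had 1430, 1245, 608, and 531 expected counts at 1 hour with EGF. With NRG-1 it had 586, 488, 422, and 309. In CPM, the highest NRG-1 library (7.75) lay above both EGF libraries of batch 2 (7.42 and 7.68), and the ranges overlapped. Because *EGR4* had 0 counts in CSS, only a bound can be given, set with 3 counts per library. On this basis *EGR4* at 1 hour exceeded CSS by at least 295-fold with EGF, and with NRG-1 by at least 131-fold. At 4 hours *EGR4* had 19, 35, 11, and 10 counts with EGF, at least 5.59-fold above CSS, and 4, 0, 4, and 1 with NRG-1, for which no fold is given. The 4-hour mean of 0.240 CPM was 1.90% of the 1-hour mean with EGF, the lowest share among the *EGR* genes with this ligand.

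The corepressor gene *NAB2* followed the *EGR* genes at 1 hour and then stayed high. It stood at 46.1, 45.3, 78.4, and 71.2 CPM at 1 hour with EGF and at 53.1, 43.2, 72.4, and 55.7 CPM with NRG-1, against 5.52, 5.83, 6.87, and 5.33 CPM in CSS. The 1-hour means were 10.2-fold and 9.53-fold above CSS. At 4 hours it stood at 47.1, 47.6, 44.1, and 38.2 CPM with EGF. With NRG-1 it stood at 37.2, 38.2, 31.0, and 23.3 CPM. The 4-hour mean was 73.5% of the 1-hour mean with EGF and 57.8% with NRG-1. The course from 1 to 4 hours differed between batches: with EGF the 4-hour level was 104% of the 1-hour level in batch 1 and 55.0% in batch 2, and with NRG-1 it was 78.3% and 42.4%. Whether *NAB2* fell after 1 hour of EGF therefore depends on the batch.

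*NAB1*, the paralog of *NAB2*, reached its highest level later. At 1 hour it stood at 20.4, 22.0, 23.2, and 23.4 CPM with EGF and at 21.6, 17.0, 19.9, and 17.3 CPM with NRG-1, 1.65-fold and 1.40-fold above the CSS mean of 13.5 ± 3.78. The batches differed in this early step, since the log2 difference from CSS with EGF was 0.34 in batch 1 and 1.19 in batch 2. With NRG-1 it was 0.21 and 0.86, and the lowest NRG-1 library (17.04 CPM) lay below the highest CSS library (17.13 CPM). At 4 hours *NAB1* stood at 73.3, 72.8, 55.3, and 50.1 CPM with EGF. With NRG-1 it stood at 72.6, 70.1, 52.8, and 47.7 CPM. Every 4-hour library lay above every 1-hour library. The 4-hour mean was 283% of the 1-hour mean with EGF and 320% with NRG-1, and it was 4.66-fold and 4.50-fold above CSS.

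**Figure D2:**
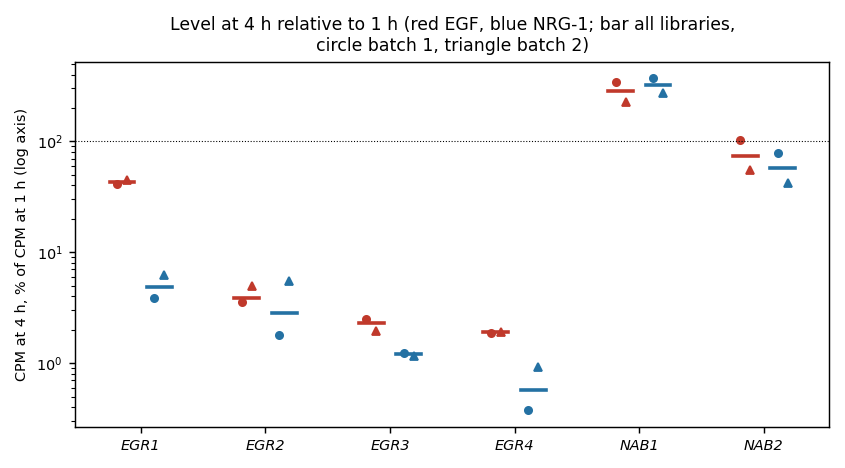
Mean CPM at 4 hours as a percentage of mean CPM at 1 hour for each gene, on a log axis, with EGF in red and NRG-1 in blue. Bars use all libraries, circles are batch 1, and triangles are batch 2, and the dotted line marks 100%. *EGR1* with EGF kept 42.8%, the other *EGR* values lay at 4.86% or lower, and *NAB1* lay at 283% and 320%.

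Ordered by mean level, *EGR1* was highest at 1 hour with NRG-1 and with EGF, whose ranges overlapped, followed by EGF at 4 hours, NRG-1 at 4 hours, both ligands at 5 minutes, and then FBS and CSS, which overlapped. For *EGR2*, *EGR3*, and *EGR4* the order was EGF at 1 hour, NRG-1 at 1 hour, EGF at 4 hours, and NRG-1 at 4 hours. In this order neighboring ranges overlapped only between the ligands at 1 hour for *EGR2* and *EGR4*. The groups without a ligand and at 5 minutes overlapped with each other for these 3 genes, and for *EGR4* NRG-1 at 4 hours overlapped with them too. For *NAB1* the ligands at 4 hours came first and overlapped, followed by the ligands at 1 hour, which also overlapped. The range of NRG-1 at 1 hour overlapped with those of NRG-1 at 5 minutes and CSS. For *NAB2* the ligands at 1 hour, EGF at 4 hours, and NRG-1 at 4 hours followed each other with overlapping ranges, and all lay above the groups without a ligand and at 5 minutes.

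The direct comparison of the ligands asks whether the same genes respond differently to EGF and NRG-1 at the same time. Both were given at the same mass concentration, which need not be the same molar dose. At 5 minutes, 0 of the 4 testable members were DEGs in edgeR, as were 0% of all genes (1.08% had an unadjusted P below 0.05), and DESeq2 called 0. *EGR1* was the only 1 of them with an unadjusted P below 0.05 (log2 difference 0.81, SE 0.34, 95% interval 0.12 to 1.51, adjusted P = 1). That difference rested on batch 2 replicate 1 with EGF, at 17.4 CPM, and was -0.031 without this library. The intervals for *NAB1* (-0.35 to 0.20) and *NAB2* (-0.42 to 0.29) included 0, as did that of *EGR3* (-1.14 to 0.37).

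At 1 hour, *EGR2*, *EGR3*, and *EGR4* had higher means with EGF than with NRG-1, described here without tests. *EGR3* was 2.23-fold higher with EGF, a log2 difference of 1.16 (SE 0.11). *EGR4* was 2.15-fold higher (1.10, SE 0.15), and *EGR2* was 2.04-fold higher (1.03, SE 0.18). The 3 genes were higher with EGF within each batch, by 1.38 and 0.95 on the log2 scale for *EGR3*, 1.33 and 0.86 for *EGR4*, and 1.27 and 0.73 for *EGR2* in batches 1 and 2. Over all alternatives the differences ran from 0.96 to 1.39 for *EGR3*, 0.87 to 1.33 for *EGR4*, and 0.74 to 1.27 for *EGR2*. For *EGR1*, the difference was -0.04 (SE 0.30) in a fit that shares 1 estimate of spread over all groups. Without the 5-minute groups, an alternative added after the data were seen, it was also -0.04, with an SE of 0.12.

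Of the *NAB* genes, which could be tested at 1 hour, 0 of 2 were DEGs between the ligands in edgeR or DESeq2, against 0.171% of all genes. *NAB1* differed by 0.24 on the log2 scale (interval -0.03 to 0.51, unadjusted P = 0.0776, adjusted P = 0.600 in edgeR). *NAB2* differed by 0.10 (-0.22 to 0.42, unadjusted P = 0.531, adjusted P = 0.792).

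**Figure D3:**
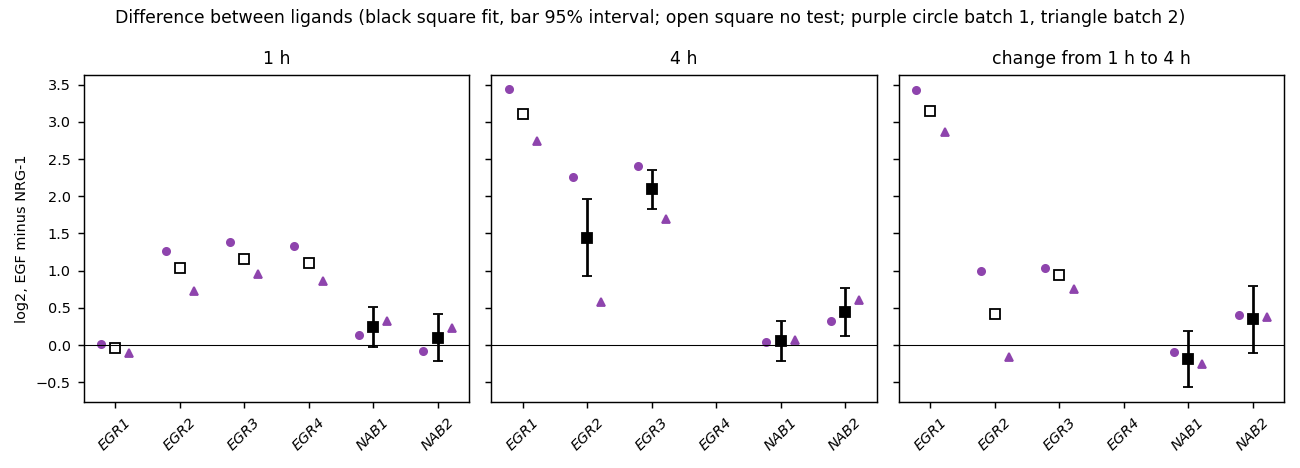
Log2 difference of EGF minus NRG-1 for each gene at 1 hour, at 4 hours, and in the change from 1 to 4 hours. Black squares are fitted values with 95% intervals, open squares are fitted values described without a test, and purple circles and triangles are batches 1 and 2. *EGR2* and *EGR3* at 4 hours are drawn with intervals but are also described without a test. *EGR4* is left out where NRG-1 at 4 hours held at most 4 counts. The fitted values of *EGR3* were 1.16 at 1 hour and 2.09 at 4 hours, and those of *NAB1* and *NAB2* did not exceed 0.44.

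At 4 hours, neither *NAB* gene was a DEG between the ligands in edgeR, against 0.171% of all genes. The genes were chosen on their differences from untreated cells after each ligand, so *EGR2* and *EGR3* are described here without tests. *EGR3* was 4.27-fold higher with EGF, a log2 difference of 2.09 (SE 0.13). The within-batch differences were 2.41 and 1.70, and the 21 alternatives in which *EGR3* was fitted gave values from 1.40 to 2.41. *EGR2* was 2.72-fold higher (1.44, SE 0.25). The batches gave unequal sizes, 2.26 in batch 1 and 0.57 in batch 2. Over the alternatives in which *EGR2* was fitted, the difference ran from 0.58 to 2.27. *NAB2* was 1.36-fold higher with EGF, which did not pass (0.44, SE 0.16, interval 0.12 to 0.77, unadjusted P = 0.00873, adjusted P = 0.193 in edgeR), although its batches gave 0.33 and 0.60. *NAB1* differed by 0.05, with an interval of -0.21 to 0.32 (adjusted P = 0.915). *EGR1*, described without a test, differed by 3.10 (SE 0.33), with 3.44 in batch 1 and 2.75 in batch 2.

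The change from 1 to 4 hours was compared between ligands in an interaction contrast. *EGR3*, described without a test, decreased less with EGF than with NRG-1, by a difference of 0.93 on the log2 scale (SE 0.16). The within-batch differences were 1.03 and 0.75, and the difference was 1.01 without the EGF 4-hour library of batch 2 replicate 1. In limma on log2(TPM + 1), which compresses low levels, it was 0.14. *EGR2*, also described, differed by 0.41 (SE 0.31), but by 0.99 in batch 1 and -0.16 in batch 2. For *EGR1* the difference was 3.14 (SE 0.44). Of the *NAB* genes, 0 of 2 were DEGs in edgeR or DESeq2, against 0.0824% of all genes, and neither passed the limits on adjusted or unadjusted P alone, which 0.506% and 6.17% of all genes passed. *NAB1* and *NAB2* differed by -0.19 (interval -0.57 to 0.19) and 0.35 (-0.11 to 0.80).

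The makeup of the *EGR* transcripts changed with time and ligand on the TPM scale. At 1 hour, *EGR1* made up 73.3% ± 3.55 of the summed *EGR* level with EGF and 86.2% ± 0.859 with NRG-1, and *EGR3* made up 20.7% ± 1.02 and 10.5% ± 0.587. *EGR2* contributed 5.10% ± 2.33 and 2.80% ± 0.973, and *EGR4* contributed 0.905% and 0.474%. By 4 hours *EGR1* again made up nearly all of the sum, 97.8% ± 0.687 with EGF and 95.1% ± 0.890 with NRG-1. The share of *NAB1* in the summed *NAB* level went from 56.6% in CSS to 18.5% ± 3.53 and 16.9% ± 2.62 at 1 hour and then to 45.3% ± 2.69 and 52.4% ± 2.00 at 4 hours, with EGF and NRG-1 respectively.

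**Figure D4:**
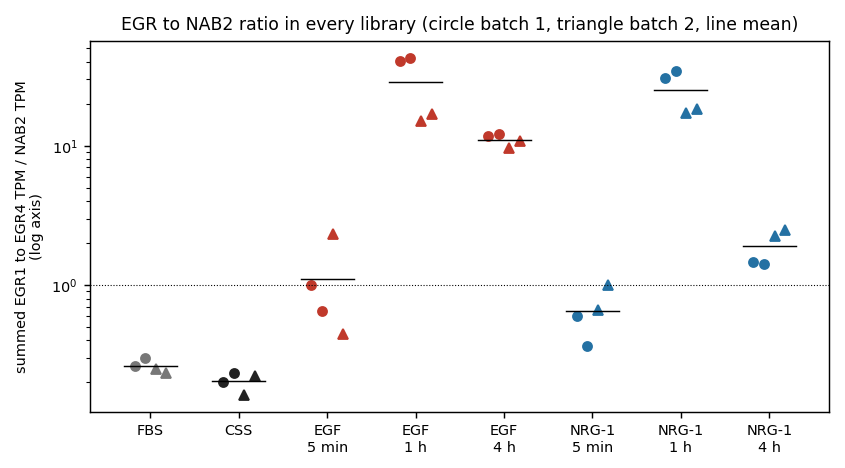
Ratio of the summed *EGR1* to *EGR4* level to the *NAB2* level, both in TPM, in every library, on a log axis. Circles are batch 1, triangles are batch 2, lines are group means, and the dotted line marks equal levels. Group means ran from 0.204 in CSS to 28.9 at 1 hour with EGF, and at 4 hours stood at 11.1 with EGF and 1.90 with NRG-1.

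The balance between the *EGR* genes and *NAB2* shifted by a wide margin. The ratio of summed *EGR* TPM to *NAB2* TPM was 0.204 ± 0.0304 in CSS and 0.261 ± 0.0288 in FBS. At 1 hour it was 28.9 ± 14.9 with EGF and 25.1 ± 8.55 with NRG-1. The spread followed the batches, with 41.8 in batch 1 and 16.0 in batch 2 for EGF and 32.4 and 17.8 for NRG-1. At 4 hours the ratio lay between 9.65 and 12.1 with EGF and between 1.41 and 2.49 with NRG-1, so that the groups did not overlap. On the log2 scale, *NAB2* over *EGR* was -3.47 ± 0.149 with EGF and -0.88 ± 0.427 with NRG-1 at 4 hours. This difference of -2.58 is given without a P value because it rests on *EGR1*, whose 4-hour difference was known when the genes were chosen. At 1 hour the difference was -0.11, described likewise. At 5 minutes it was -0.57 (P = 0.371, adjusted P = 0.557, by an exact two-sided permutation test adjusted over the 3 times). With 4 libraries against 4, such a test cannot give a P value below 0.0286.

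Batch and level moved together for several members. At 1 hour with EGF, batch 1 was higher than batch 2 by 3.68-fold for *EGR2*, 2.35-fold for *EGR4*, 1.74-fold for *EGR3*, and 1.47-fold for *EGR1*, while *NAB2* in batch 1 was 0.610 times its level in batch 2. With NRG-1 at 1 hour the same ratios were 2.54, 1.70, 1.29, 1.35, and 0.752. In CSS the batches were close for *EGR1* (1.02) and *NAB2* (0.930), whereas *NAB1* was 1.64 times higher in batch 1. Both batches hold every group, so a batch term was part of the fit. What differed between the batches is not given in the labels.

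**Figure D5:**
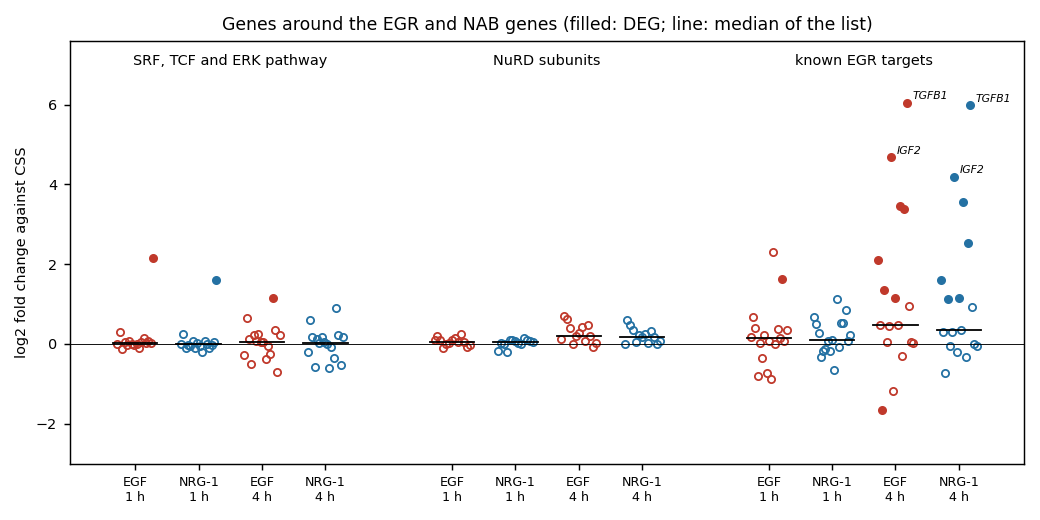
Log2 fold change against CSS of every gene in 3 lists around the *EGR* and *NAB* genes, with EGF in red and NRG-1 in blue, at 1 and 4 hours. Filled points are DEGs and lines are list medians. The NuRD subunits held 0 DEGs, and *TGFB1* and *IGF2* had the highest values among the known EGR targets.

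The 3 gene lists were chosen with earlier results of these data known, so their counts and P values may not be independent of that choice. Among 16 genes of the upstream pathway (SRF, ternary complex factors, MRTFs, ERK kinases, RSK and MSK kinases, and *CREB1*), 1 was a DEG at 1 hour with each ligand, against 1.72% of all genes with EGF and 0.989% with NRG-1. This gene was *SRF*, which encodes the CArG box factor and is itself an early gene. *SRF* stood at 55.7 ± 2.88 CPM in CSS. With EGF it rose to 247 ± 27.3 CPM, by 2.15 on the log2 scale (adjusted P = 5.49e-17, edgeR, SE 0.09). With NRG-1 it rose to 170.4 ± 18.3 CPM, by 1.61 (adjusted P = 5.33e-14, SE 0.09). It was also higher with EGF than with NRG-1 at 1 hour, by 0.53 (SE 0.09, adjusted P = 0.000521), below the fold limit. At 4 hours, 1 of the 16 was a DEG with EGF, against 9.56% of all genes, *RPS6KA3*, which encodes the ERK-activated kinase RSK2 (1.15, SE 0.10, adjusted P = 2.11e-10), and 0 with NRG-1, against 7.41%. *RPS6KA3* stood at 60.9 ± 4.61 CPM with EGF and 51.4 ± 5.93 CPM with NRG-1, against 27.7 ± 3.80 CPM in CSS. Its rise with NRG-1 passed the adjusted P limit but not the fold limit (0.90, adjusted P = 2.98e-08), and the difference between the ligands did not pass (0.25, adjusted P = 0.306). With NRG-1, 12 of 16 had an unadjusted P below 0.05, as did 48.9% of all genes, and DESeq2 also called 0. The list medians at 4 hours were 0.06 and 0.03, against -0.02 and -0.01 over all genes.

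Of 13 NuRD subunits, through which NAB proteins repress, 0 were DEGs against CSS with either ligand at any time in edgeR or DESeq2. At 5 minutes 0.00588% of all genes were DEGs with EGF and 0% with NRG-1. These shares were 1.72% and 0.989% at 1 hour and 9.56% and 7.41% at 4 hours. At 5 minutes 0 of 13 subunits had an unadjusted P below 0.05 with either ligand, against 1.48% and 1.91% of all genes. At 1 hour 1 did with EGF and 2 with NRG-1, against 18.6% and 17.0%. At 4 hours, 8 of 13 passed the adjusted P limit with EGF and 7 with NRG-1, where 49.2% and 42.6% of all genes passed in either direction. The subunits that passed were all higher. The list medians were 0.20 and 0.18 on the log2 scale. *CHD4*, the NuRD helicase, named after its values were seen, was at 394 ± 45.4 CPM with EGF at 4 hours and 244 ± 26.7 CPM in CSS (0.69, SE 0.15, adjusted P = 0.000329).

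Of 20 genes known as EGR targets from other systems, 17 were tested. This list, like the others, was chosen with earlier results of these data known. At 1 hour, 1 of 17 was a DEG with EGF, *THBS1*, which encodes the matrix protein thrombospondin 1. It rose from 21.3 ± 1.99 to 66.4 ± 6.78 CPM, by 1.64 on the log2 scale (adjusted P = 1.54e-11, edgeR, SE 0.12). With NRG-1 it was 0 of 17 in edgeR and DESeq2, with 4 of 17 at an unadjusted P below 0.05. Over all genes, 1.72% were DEGs with EGF and 0.989% with NRG-1, and 17.0% had an unadjusted P below 0.05 with NRG-1. At 4 hours, 7 of 17 were higher DEGs with EGF and 7 with NRG-1, against 5.86% and 4.87% of all genes, and 1 was a lower DEG with EGF, against 3.70%. Over the 3 lists together, the 9 calls with EGF and 7 with NRG-1 at 4 hours fell to 5 and 3 in limma on log2(TPM + 0.1), 2 and 2 on log2(TPM + 1), 4 and 2 in batch 2 alone, and 2 and 1 with at least 10 counts in every library. *TGFB1*, the gene for transforming growth factor beta 1, had the largest rise with both ligands. It stood at 0.0996 ± 0.0320 CPM in CSS, at 6.83 ± 0.655 with EGF (6.04, adjusted P = 4.13e-19, edgeR), and at 6.57 ± 1.18 with NRG-1 (5.98, adjusted P = 9.09e-19). *F3*, the gene for tissue factor, fell with EGF from 0.514 ± 0.0733 to 0.157 ± 0.0876 CPM (-1.66, SE 0.26, adjusted P = 3.38e-06). *IGF2* and *PDGFA*, growth factor genes named after their values were seen, rose with EGF to 10.2 ± 1.96 and 20.1 ± 3.11 CPM (4.68 and 1.16 on the log2 scale). *CD44*, *FGF2*, and *PLAU*, also named afterwards, rose with EGF too but stayed below 0.30 CPM in every group mean. The list medians at 4 hours were 0.48 with EGF and 0.35 with NRG-1, and 0 of 17 were DEGs between the ligands at 4 hours in edgeR or DESeq2, with 3 at an unadjusted P below 0.05 (11.2% of all genes). Between FBS and CSS, 2 of 17 were higher and 3 lower DEGs, against 4.91% and 3.80% of all genes. The largest rise in FBS was that of *CD44*, which encodes a cell surface receptor (1.68, from 0.0375 to 0.135 CPM), and the largest fall was that of *TGFB1* (-1.54, to 0.0338 CPM). For comparison, *EGR2* at 0.0353 CPM in CSS held 1 to 4 counts per library. The lower level in each of these folds is thus close to the count floor, which was applied to members only. The sizes of both folds are uncertain.

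The genes with the most similar course were found by Pearson correlation of log2 CPM over the 8 group means, among 12019 genes. These values describe the shape of 8 points that share libraries and a common scale, and no test was made. *EGR1* was most like *FOS* (r = 0.993) and *ZFP36L2* (0.987). *FOS* stood at 140 ± 37.0 and 145 ± 5.75 CPM at 1 hour with EGF and NRG-1 and at 33.2 ± 1.76 and 15.9 ± 7.50 CPM at 4 hours. *EGR2* was most like *EGR3* (0.997) and *SERTAD1* (0.997), and *EGR3* was most like *EGR2* and *MYADM* (0.996). *EGR4* was most like *SPRY2* (0.997), a feedback inhibitor of ERK signaling, and *BCL10* (0.993). *SPRY2* fell from 19.9 ± 0.883 to 2.94 ± 0.404 CPM between 1 and 4 hours of EGF. *NAB2* was most like *SPTY2D1* (0.996) and *SPATA2L* (0.994), and *NAB1* was most like *METRNL* (0.998) and *TNFRSF21* (0.997). *TNFRSF21*, a death receptor gene, reached 397 ± 39.2 CPM at 4 hours with EGF and 317 ± 52.6 CPM with NRG-1, from 34.0 ± 2.11 CPM in CSS. The *NAB1* and *NAB2* courses correlated with each other at 0.722, lower than the 0.975 between *NAB2* and *EGR1*.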

How the data were processed

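Polyadenylated RNA from LNCaP cells was made into stranded libraries and sequenced in 32 libraries. As given in the submitters' processing notes and the study's methods, reads were trimmed with Trimmomatic 0.36 and aligned with STAR 2.7.0f to hg19, and genes were quantified with RSEM. The annotation is not given in the sources used here. The authors deposited 1 table of expected counts and 1 of TPM, each with 25498 genes in all libraries and no further scaling. Expected counts assign reads shared between similar genes in part, and 11.2% of the deposited values were not whole.

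The 6 members and the gene lists were chosen with earlier results of these data known. Expected counts were rounded and scaled by TMM. A gene was tested if it reached 5 counts in 3 or more libraries, as 16995 did. These genes were fitted with edgeR 4.0.16 (R 4.3.3, quasi-likelihood test) with group and batch as terms over all 32 libraries. Benjamini-Hochberg adjustment covered all 16995 genes. A DEG needed an adjusted P below 0.05 and a log2 difference above 1 or below -1. Members with at most 4 counts in every library of a group were not tested against it. This limit was not applied to genes of the lists. TPM values deposited by the authors were used for shares and ratios, which were compared by exact two-sided permutation tests. Intervals on count ratios are exact binomial and cover counting error only. Named genes were all members, the DEG with the largest rise and fall in each list and comparison, and the 2 genes most like each member. DESeq2 1.42.0, limma 3.58.1 on log2 TPM, other filters and terms, single batches, and leaving out each library were tried as alternatives. The edgeR fit was tested on simulated data. All columns of per-sample values were used. Values of some list genes are not reported here.

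Library totals ranged from 63822654 to 92401724 expected counts. No 2 replicates were alike within counting noise (chi-square per degree of freedom at least 6.50 over 48 pairs). The labels number replicates within batches. Deviations from the group means of libraries with the same batch and number correlated at 0.13 to 0.57, over 0.1 in 112 of 112 pairs. These deviations include the difference between batches, so they do not show pairing by number. Within batch 1 alone 1 of 28 such values was over 0.1, and within batch 2 alone 26 of 28. Pairing by number was used only in the replicate block alternative, not in the main fit or the permutation tests. The labels call the replicates biological, with no further description.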

Additional observations from a re-analysis of the deposited data

Results flagged for a closer look

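Values of 3 members differed between the ligands. At 1 hour the log2 difference of EGF over NRG-1 was 1.03 for *EGR2*, 1.16 for *EGR3*, and 1.10 for *EGR4*, and all 4 EGF libraries lay above both NRG-1 libraries of their own batch. The change from 1 to 4 hours differed by 0.93 for *EGR3*. The 1-hour levels with each ligand were known when the genes were chosen, so these 4 values are descriptions. At 4 hours the difference was 1.44 for *EGR2* and 2.09 for *EGR3*. These 2 values are also descriptions, because the choice of genes rested on their response to each ligand. Among 39 sets of 4 libraries, 0 held a library set apart from the other three by Dixon's limit, where chance alone gives 1.95.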

How the results depend on the processing

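Numbers of members past the limits are counted here over the members fitted, apart from those at the count floor in a comparison. *EGR1* and *EGR4* are also left out at 4 hours and in the change from 1 to 4 hours. The *EGR* genes at 1 hour, and *EGR2* and *EGR3* at 4 hours and in that change, are included although their levels were known. For these genes the counts describe the fit and are not tests. Between ligands at 1 hour the number was 3, where 0.171% of all genes were DEGs, and it was 2 to 3 when single libraries were left out. It was 1 with no batch term, 0 in batch 2 alone, and 0 with at least 10 counts in every library, a filter that removed *EGR2*, *EGR3*, and *EGR4*. At 4 hours the number was 2, where 0.171% of all genes were DEGs, with and without single libraries. It was 0 under that filter and 1 in each of batch 2 alone, limma on log2(TPM + 1) with and without the filter, no batch term, and only the groups compared. For the change from 1 to 4 hours it was 0 (0 to 1 without single libraries, with *EGR3* past the limits without EGF 4 hours batch 2 replicate 1), and it was 1 in batch 1 alone and 1 without the fold limit. Between FBS and CSS it was 0, and 1 without the fold limit. For the 3 lists against CSS, leaving out the fold limit gave 7 calls at 1 hour with EGF and 5 with NRG-1, and 30 and 27 at 4 hours. At 4 hours the lists had 9 calls with EGF (9 to 10 without single libraries) and 7 with NRG-1 (5 to 7). These were 2 and 1 with at least 10 counts in every library, 4 and 2 in batch 2 alone, 5 and 3 in limma on log2(TPM + 0.1), and 2 and 2 in limma on log2(TPM + 1), with or without the filter. Apart from the filter, the cause of these changes was not tested.

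The difference in the log2 ratio of *NAB2* to *EGR* at 1 hour (-0.11) changed sign to 0.13 with *EGR1* alone and to 0.16 in batch 2 alone, and ran from -0.36 to 0.14 without single libraries. At 4 hours it was -3.07 in batch 1 and -2.10 in batch 2. Small differences changed sign, some of them tested without a call and others only described. For *EGR1* in FBS these were -0.023 in limma on log2(TPM + 0.1) and -0.0084 on log2(TPM + 1). For *EGR1* between ligands at 1 hour they were 0.019 in batch 1 and 0.061 in limma, and -0.16 to 0.070 without single libraries. For *NAB2* at 1 hour it was -0.072 in batch 1, and -0.045 to 0.24 without single libraries. For *EGR2* over time they were -0.16 in batch 2 and -0.27 in limma on log2(TPM + 1). At 5 minutes, *EGR1* ran from -0.031 to 1.10 and *NAB1* from -0.16 to 0.024 without single libraries. With a replicate block, which pairs libraries by batch and number, *EGR3* at 4 hours was 2.11 in edgeR, and no call changed.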
